A study of Homo sapiens with 27 samples.

Results

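The AP-1 family was described through 10 genes, FOS, FOSB, FOSL1, FOSL2, JUN, JUNB, JUND, ATF3, BATF3 and MAFF, taken by their Ensembl identifiers from the 57165 rows of the deposited gene count table. All 10 were found, and all 10 passed the filter on low counts in every fit. AP-1 is a dimer of basic leucine zipper proteins of the JUN, FOS, ATF and MAF families. A JUN protein pairs with itself or with a FOS or ATF family partner and binds short palindromic sites in promoters and enhancers. FOS, FOSB, JUN, JUNB and ATF3 are immediate early genes, transcribed within minutes of growth factor or stress signals, whereas FOSL1 and FOSL2 are slower members that depend on sustained MAPK signalling. In breast cancer cells, FOSL1 is best known for its high level in the mesenchymal, triple negative lines.

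The study used a dead Cas9 fused to the KRAB repressor domain, delivered by a lentiviral vector (pLV-KRAB), to silence ZEB1, a repressor of epithelial genes, in SUM159 and MDA-MB-231, which are established triple negative breast cancer lines with mesenchymal features. RNA was sequenced from 27 libraries in 9 groups of 3, with 15461200 to 21473757 estimated counts per library. In SUM159 the groups were wild type, pLV-KRAB with no targeting gRNA (No gRNA), pLV-KRAB with gRNA 4 and pLV-KRAB with all 4 gRNAs against the ZEB1 promoter (All gRNA), all from sequencing run 1. Wild type SUM159 was sequenced again in run 2, together with MDA-MB-231 wild type, No gRNA and 2 targeted groups. All transduced cells, the No gRNA controls included, went through lentiviral infection and puromycin selection, which wild type cells did not. The titles and the column names of the 6 targeted MDA-MB-231 libraries give opposite gRNA conditions, so these are called set 1 (title gRNA 4, column all gRNAs) and set 2 (title all 4 gRNAs, column gRNA 4) and are not assigned to either condition. Replicates were individual clones according to the study's methods.

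ZEB1 (ENSG00000148516, GRCh38 chr10:31318495-31529814, + strand), the targeted gene, was read first. In SUM159 it was at 70.8, 77.3 and 73.3 CPM (a gene's share of its library's total count, TMM-scaled) in the 3 No gRNA libraries, 4.56, 3.25 and 2.57 CPM with gRNA 4 and 0.812, 0.376 and 1.03 CPM with all gRNAs. In MDA-MB-231 it was at 105, 122 and 104 CPM in No gRNA, 4.75, 5.51 and 5.74 CPM in set 1 and 4.94, 3.71 and 5.43 CPM in set 2. Wild type cells had 84.0, 75.9 and 79.1 CPM in SUM159 of run 1, overlapping No gRNA (-0.12 ± 0.09 on the log2 scale for No gRNA against wild type, limma adjusted p = 0.313), and 74.1, 65.6 and 70.5 CPM in MDA-MB-231, all below No gRNA, which stood 1.51-fold higher (0.60 ± 0.08, limma adjusted p = 5.16e-05). Every targeted library lay below every control library of its line, and set 1 and set 2 overlapped, so the ZEB1 level does not tell the 2 sets apart. The lines were checked against some of their markers. In the wild type groups VIM stood between 1743 and 3328 CPM, while ESR1 and PGR were at no more than 0.184 CPM. PTPRC, a leukocyte gene, was at no more than 0.0529 CPM. ERBB2, listed among the markers to be low, was instead at 38.2 to 64.7 CPM in those libraries.

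Length-scaled levels showed which family members made up most of the AP-1 transcripts. CPM were divided by the length of each gene's canonical GENCODE transcript (CPM per kb), the only scale on which levels of different genes are compared here. FOSL1 was the highest member in both wild type SUM159 groups and in all 4 MDA-MB-231 groups, at 291 ± 5.17 CPM per kb (SD, n = 3) in MDA-MB-231 wild type and 119 ± 2.73 in SUM159 wild type of run 1. In the 3 transduced SUM159 groups JUNB stood highest instead, at 51.7 ± 8.16 CPM per kb against 48.3 ± 1.81 for FOSL1 in No gRNA, a gap smaller than the spread between replicates. With gRNA 4, JUNB was at 80.4 ± 20.5 CPM per kb against 50.4 ± 1.98 for FOSL1, and with all gRNAs at 78.9 ± 22.6 against 56.0 ± 1.56. FOSL1 supplied 54.1% to 77.1% of the length-scaled sum of the 4 FOS family genes in the SUM159 libraries and 59.2% to 87.9% in the MDA-MB-231 libraries, the highest values being those of set 2.

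**Figure D1:**
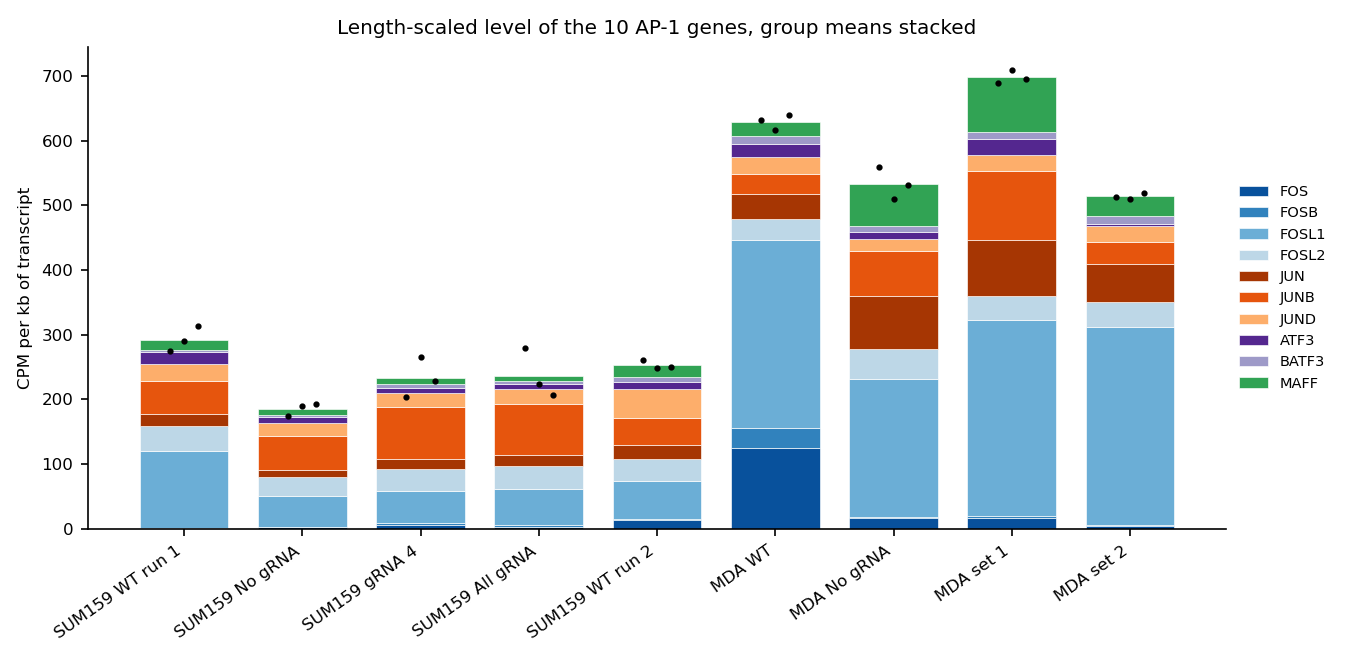
Stacked bars show the group mean of each of the 10 AP-1 genes in CPM per kb of canonical transcript, and black points the summed level in each of the 3 libraries of a group. FOSL1 fills the largest block in all MDA-MB-231 groups, and a FOS block is visible mainly in MDA-MB-231 wild type.

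At the lower end, FOS (0.599 ± 0.281 CPM per kb) and FOSB (0.710 ± 0.0833) were the lowest members in SUM159 wild type of run 1 and did not differ beyond their spread. FOSB was the lowest member in 7 of the other 8 groups, from 0.484 ± 0.226 CPM per kb in set 2 to 2.80 ± 0.565 in set 1. MDA-MB-231 wild type was the exception, where BATF3 was lowest at 12.3 ± 0.929 CPM per kb and FOS ranked second at 125 ± 11.2. JUN made up 12.2% to 21.1% of the length-scaled JUN family sum in SUM159 libraries and 39.4% to 51.0% in MDA-MB-231 libraries, while JUNB made up 37.1% to 69.6% and 27.7% to 49.8%.

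FOS (ENSG00000170345, chr14:75278826-75282230, + strand) encodes the founding partner of JUN, and FOSB (ENSG00000125740, chr19:45467995-45475179, + strand) its nearest relative. FOSL1 (ENSG00000175592, chr11:65892049-65900573, - strand) encodes FRA1, and FOSL2 (ENSG00000075426, chr2:28392448-28417317, + strand) encodes FRA2, both of which lack the strong transactivation region of FOS. JUN (ENSG00000177606, chr1:58776845-58784048, - strand) encodes the main activating JUN protein, and JUNB (ENSG00000171223, chr19:12791486-12793315, + strand) and JUND (ENSG00000130522, chr19:18279694-18281622, - strand) encode weaker or context-dependent partners. ATF3 (ENSG00000162772, chr1:212565334-212620777, + strand) encodes a stress-induced repressor, BATF3 (ENSG00000123685, chr1:212686417-212699840, - strand) a small partner without a transactivation region, and MAFF (ENSG00000185022, chr22:38200767-38216507, + strand) a small MAF protein. These positions are those of GENCODE on GRCh38. FOSB overlaps ERCC1, FOSL2 overlaps FOSL2-AS1, JUNB overlaps HOOK2 and MAFF overlaps PLA2G6 on the opposite strand, and because the sources used here do not give the strand setting of the counting, part of their counts cannot be told apart from those of the overlapping gene.

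The upstream sequences of FOS, FOSB and JUN are shown because FOS and FOSB varied together across the libraries and the JUN promoter holds the AP-1-like site by which JUN is known to act on its own gene. Each run covers bases 130 to 11 before the RefSeq transcript start on GRCh38.p14, 5′ to 3′ on the strand of the gene, at chr14:75278698-75278817 for FOS, chr19:45467866-45467985 for FOSB and chr1:58784058-58784177 for JUN. Capitals mark TGACG, the core of the cyclic AMP response element that ATF and CREB proteins read, and TGACATCA, the AP-1-like site of the JUN promoter.
FOS: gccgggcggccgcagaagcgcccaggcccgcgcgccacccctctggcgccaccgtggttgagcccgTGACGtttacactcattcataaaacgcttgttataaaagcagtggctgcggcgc
FOSB: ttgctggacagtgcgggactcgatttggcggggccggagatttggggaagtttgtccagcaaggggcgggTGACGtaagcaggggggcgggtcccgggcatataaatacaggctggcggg
JUN: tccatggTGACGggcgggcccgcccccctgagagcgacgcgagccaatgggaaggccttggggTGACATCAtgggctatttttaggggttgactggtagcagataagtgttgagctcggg
FOS and FOSB carried TGACG at nearly the same place, 64 to 60 and 60 to 56 bases before the start. This place was not particular to them, since FOSL2 held TGACG at 66 to 62 and MAFF at 54 to 50. Across the libraries FOSL2 and MAFF did not vary with FOS (Pearson coefficients of -0.35 and -0.45). RefSeq entries matched 8 of the 10 members, with 10 promoters, all but FOSL1 and BATF3, and over the 250 bases before the start, read on both strands, 7 of the 10 promoters held TGACG, against 21.2% of 35116 promoters. The full element TGACGTCA, which contains TGACG on both strands, stood in JUND and MAFF (1.65% of all promoters) and TGACATCA in JUN and ATF3 (2.37%). Neither the AP-1 site TGANTCA (6.57% of all promoters), nor the E-box CACCTG that ZEB1 binds (17.5%), nor the CArG box of serum response factor (1.16%) was found in the windows of these 8 members. Sequence further than 250 bases before the start was not read, so a motif missing here may still lie further upstream. These matches are letters in a window and were not tested as binding sites.

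In SUM159, targeting ZEB1 went with higher FOSB in both targeted groups, by 3.02-fold with all gRNAs and 2.40-fold with gRNA 4, and with higher FOS with gRNA 4, by 3.73-fold. FOSL1 and JUN rose less, by 1.16-fold and 1.39-fold, with all gRNAs. No member fell. In the voom and limma moderated test, 3 of 10 members rose with all gRNAs, where 10.8% of all genes tested were called in either direction, and 2 of 10 with gRNA 4, where 11.0% were called. The count with all gRNAs became 1 with no filter and 1 with a replicate block, and both counts were higher by DESeq2. The median log2 fold change of the 10 members was 0.28 and 0.32, beside 0.000130 and -0.000667 for all genes tested. No member passed the limma TREAT test for a change beyond 2-fold (0.396% and 0.390% of all genes passed), with 1 member in each comparison at an unadjusted TREAT p under 0.05 and no member called by edgeR or DESeq2 at the same bound.

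FOSB was at 2.18, 2.89 and 3.35 CPM in No gRNA, 7.24, 7.31 and 5.73 CPM with gRNA 4 and 6.81, 12.3 and 7.14 CPM with all gRNAs. All 6 targeted libraries lay above the 3 controls, with log2 fold changes of 1.59 ± 0.27 (standard error, limma adjusted p = 0.00262) for all gRNAs and 1.26 ± 0.28 (limma adjusted p = 0.0118) for gRNA 4. FOS was at 2.33, 2.04 and 8.04 CPM in No gRNA, 13.2, 10.4 and 15.6 CPM with gRNA 4 and 8.88, 6.32 and 4.50 CPM with all gRNAs. The third No gRNA library stood above the other 2 and overlapped the All gRNA group, but lay below every gRNA 4 library. As the highest control, it lowers the FOS fold in both targeted groups, that of gRNA 4 included. The FOS log2 fold change was 1.90 ± 0.41 with gRNA 4 (limma adjusted p = 0.0114) and 0.88 ± 0.45 with all gRNAs (limma adjusted p = 0.247), and without that No gRNA library the second value was 1.51 (limma adjusted p = 0.0480). These FOS values rest on few counts, 34.1 to 264 per library.

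FOSL1, at 85.0, 78.9 and 83.0 CPM in No gRNA, was at 98.2, 93.0 and 94.5 CPM with all gRNAs and 81.9, 87.4 and 88.1 CPM with gRNA 4. The All gRNA libraries lay above all 3 controls, with a log2 fold change of 0.21 ± 0.05 (limma adjusted p = 0.0290), and the gRNA 4 libraries overlapped them (0.05 ± 0.06, limma adjusted p = 0.635). FOSL2 was at 174 to 200 CPM in No gRNA and 210 to 281 CPM in the 6 targeted libraries, ranges that did not overlap, but its log2 fold changes of 0.35 ± 0.11 and 0.25 ± 0.11 did not pass the test (limma adjusted p = 0.0690 for all gRNAs and 0.198 for gRNA 4).

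JUN was at 36.4, 41.2 and 40.9 CPM in No gRNA, 47.8, 58.7 and 50.1 CPM with gRNA 4 and 66.2, 51.8 and 48.6 CPM with all gRNAs. Every targeted library lay above the controls, and the log2 fold change was 0.48 ± 0.13 for all gRNAs (limma adjusted p = 0.0347) and 0.39 ± 0.13 for gRNA 4 (limma adjusted p = 0.0827). JUNB was at 77.3, 104 and 103 CPM in No gRNA, 116, 189 and 137 CPM with gRNA 4 and 191, 132 and 111 CPM with all gRNAs. Its 6 targeted libraries also lay above the 3 controls, but they spread widely, and log2 fold changes of 0.58 ± 0.23 and 0.61 ± 0.23 did not pass (limma adjusted p = 0.134 and 0.119). JUND was highest in the same libraries as JUNB, at 52.3 CPM in the second gRNA 4 library and 58.8 CPM in the first All gRNA library, against 33.3 to 38.7 CPM in the other 4 targeted libraries and 37.0 to 38.7 CPM in No gRNA. ATF3, BATF3 and MAFF did not pass the test in either comparison, with log2 fold changes from -0.35 ± 0.17 for ATF3 with all gRNAs to 0.40 ± 0.20 for BATF3 with gRNA 4. The FOSL1 and JUN calls with all gRNAs were each lost when any of 5 of the 6 compared libraries was left out, and without the first No gRNA library no member was called with gRNA 4. The first All gRNA library was the highest of its group for FOS, FOSL1, FOSL2, JUN, JUNB, JUND and MAFF and alone had CDH1, an epithelial gene, at 5.11 CPM, against no more than 0.331 CPM in the other 5 targeted libraries. Without it FOSB alone was called with all gRNAs, and the log2 fold change was 0.35 for JUN (limma adjusted p = 0.0977) and 0.19 for FOSL1 (limma adjusted p = 0.0851). PECAM1, an endothelial marker, moved with the targeted groups, from 1.18 to 3.75 CPM in No gRNA to 4.33 to 7.93 CPM, while the leukocyte marker PTPRC was at no more than 0.134 CPM in these libraries, and the part of either in the result was not tested.

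**Figure D2:**
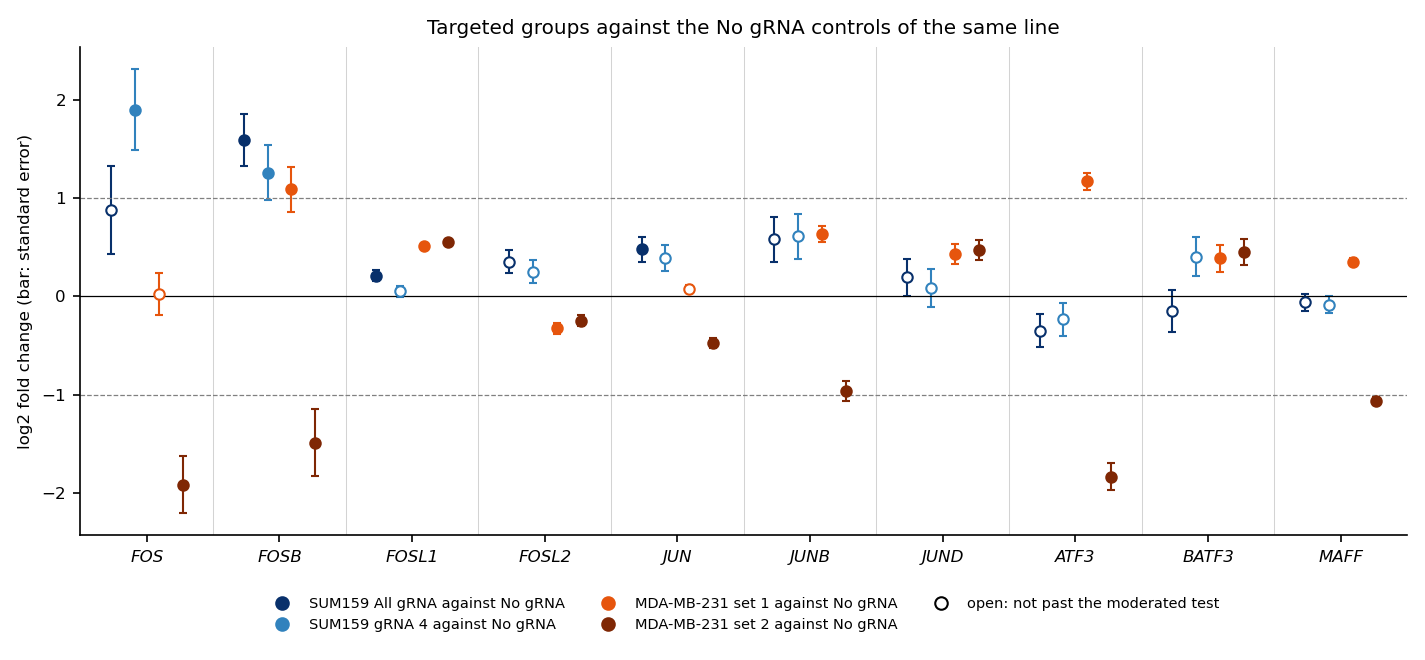
Points show the limma log2 fold change of each AP-1 gene in the 4 targeted groups against No gRNA of the same line, bars the standard error, and dashed lines a change of 2-fold. Filled points passed the moderated test at an adjusted p of 0.05. Set 1 and set 2 of MDA-MB-231 stand on opposite sides of 0 for FOSB, JUNB, ATF3 and MAFF, each past the test in both.

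The 2 targeted SUM159 groups were also compared with each other. With all gRNAs against gRNA 4, 0 of 10 members changed in limma (0.944% of all genes were called), 3 had an unadjusted p under 0.05, and edgeR and DESeq2 called 0. The largest difference was that of FOS, -1.02 ± 0.35 on the log2 scale (limma adjusted p = 0.280), with a 95% interval of -1.79 to -0.25.

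In MDA-MB-231, set 1 had higher ATF3 (2.25-fold), FOSB (2.13-fold), JUNB (1.55-fold) and FOSL1 (1.43-fold) than No gRNA, while set 2 had lower FOS (3.77-fold), ATF3 (3.57-fold), FOSB (2.80-fold), MAFF (2.09-fold) and JUNB (1.95-fold). Both sets had higher FOSL1, JUND and BATF3 and lower FOSL2. In limma, 7 members rose and 1 fell in set 1, where 37.8% of all genes were called, and 3 rose and 7 fell in set 2, where 52.4% were called. The members' median log2 fold change was 0.41 in set 1 and -0.72 in set 2, beside -0.01 for all genes tested in both. Beyond 2-fold, TREAT called ATF3 in set 2 (4.14% of all genes passed) and no member in set 1 (1.47% passed), where 1 member had an unadjusted TREAT p under 0.05 and edgeR and DESeq2 called 0. In set 2, edgeR and DESeq2 each called FOS as well as ATF3 beyond 2-fold. The share of counts on mitochondrial genes moved with the sets, from 1.96% to 2.43% in No gRNA to 1.48% to 1.69% in set 1 and 1.40% to 1.56% in set 2, and its part in these differences was not tested. So did the number of genes with 1 or more counts, at 22914 to 23301 in No gRNA, 22089 to 22447 in set 1 and 21468 to 21863 in set 2. Its part was not tested either. PTPRC was at no more than 0.294 CPM in these libraries, and PECAM1 at no more than 3.49 CPM, below No gRNA in set 2.

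ATF3 was at 22.0, 23.4 and 19.3 CPM in No gRNA, 48.0, 44.5 and 52.6 CPM in set 1 and 5.30, 6.30 and 6.17 CPM in set 2. The 3 groups did not overlap, and the log2 fold changes were 1.17 ± 0.09 in set 1 (limma adjusted p = 1.86e-06) and -1.83 ± 0.14 in set 2 (limma adjusted p = 6.90e-07, TREAT adjusted p = 0.00216). FOS was at 43.7, 25.5 and 39.3 CPM in No gRNA, 38.5, 38.1 and 30.7 CPM in set 1 and 6.99, 8.23 and 13.7 CPM in set 2. Set 2 lay below all other MDA-MB-231 libraries, with a log2 fold change of -1.91 ± 0.29 (limma adjusted p = 1.72e-04, TREAT adjusted p = 0.0881), whereas set 1 overlapped No gRNA (0.02 ± 0.21, limma adjusted p = 0.944). FOSB was at 4.85, 4.67 and 5.11 CPM in No gRNA, 8.84, 9.91 and 12.9 CPM in set 1 and 1.34, 1.33 and 2.81 CPM in set 2, again without overlap between the 3 groups. Its log2 fold changes were 1.09 ± 0.23 and -1.49 ± 0.34 (limma adjusted p = 0.00299 and 0.00302).

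JUNB and MAFF followed the same order of groups. JUNB was at 149, 114 and 119 CPM in No gRNA, 192, 199 and 197 CPM in set 1 and 65.0, 59.2 and 68.2 CPM in set 2 (log2 fold changes of 0.63 ± 0.08 and -0.96 ± 0.10, limma adjusted p = 1.01e-04 and 9.78e-06). MAFF was at 160, 149 and 161 CPM in No gRNA, 204, 195 and 201 CPM in set 1 and 75.2, 73.2 and 72.9 CPM in set 2 (0.35 ± 0.04 and -1.06 ± 0.04, limma adjusted p = 2.04e-05 and 5.92e-09). Neither gene's groups overlapped. JUN was at 291, 260 and 258 CPM in No gRNA and overlapped set 1, at 278, 283 and 286 CPM, while set 2 lay below both at 185, 194 and 194 CPM (-0.47 ± 0.05, limma adjusted p = 7.06e-06).

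FOSL1 moved alike in both sets, from 362, 355 and 369 CPM in No gRNA to 500, 537 and 512 CPM in set 1 and 524, 522 and 522 CPM in set 2. All 6 targeted libraries lay above the controls, with log2 fold changes of 0.52 ± 0.03 and 0.55 ± 0.03 (limma adjusted p = 1.81e-07 and 4.14e-08). FOSL2 was at 294, 318 and 315 CPM in No gRNA and between 226 and 267 CPM in the targeted libraries, without overlap (-0.32 ± 0.06 in set 1 and -0.25 ± 0.06 in set 2). JUND was at 41.2, 32.3 and 32.8 CPM in No gRNA and between 43.2 and 50.8 CPM in the targeted libraries (0.43 ± 0.10 and 0.47 ± 0.10). BATF3 was at 6.19 to 7.82 CPM in No gRNA and 8.37 to 10.7 CPM in the targeted libraries (0.39 ± 0.14 and 0.45 ± 0.13), and its call in set 1 was lost when any of 5 of the 6 libraries was left out. For these 4 genes set 2 against set 1 gave log2 differences between 0.04 ± 0.03 for FOSL1 and 0.08 ± 0.06 for FOSL2, none of which passed.

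Tested against each other, set 2 was lower than set 1 in 6 of 10 members and higher in none, where 51.5% of all genes were called, with a median member difference of -0.98 beside -0.03 for all genes tested. The 6 were ATF3 (-3.004 ± 0.13 on the log2 scale, limma adjusted p = 7.31e-09), FOSB (-2.58 ± 0.32), FOS (-1.94 ± 0.29), JUNB (-1.60 ± 0.10), MAFF (-1.42 ± 0.04) and JUN (-0.55 ± 0.05). Since both sets share the No gRNA controls, this contrast is the one that bears on their difference.

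**Figure D3:**
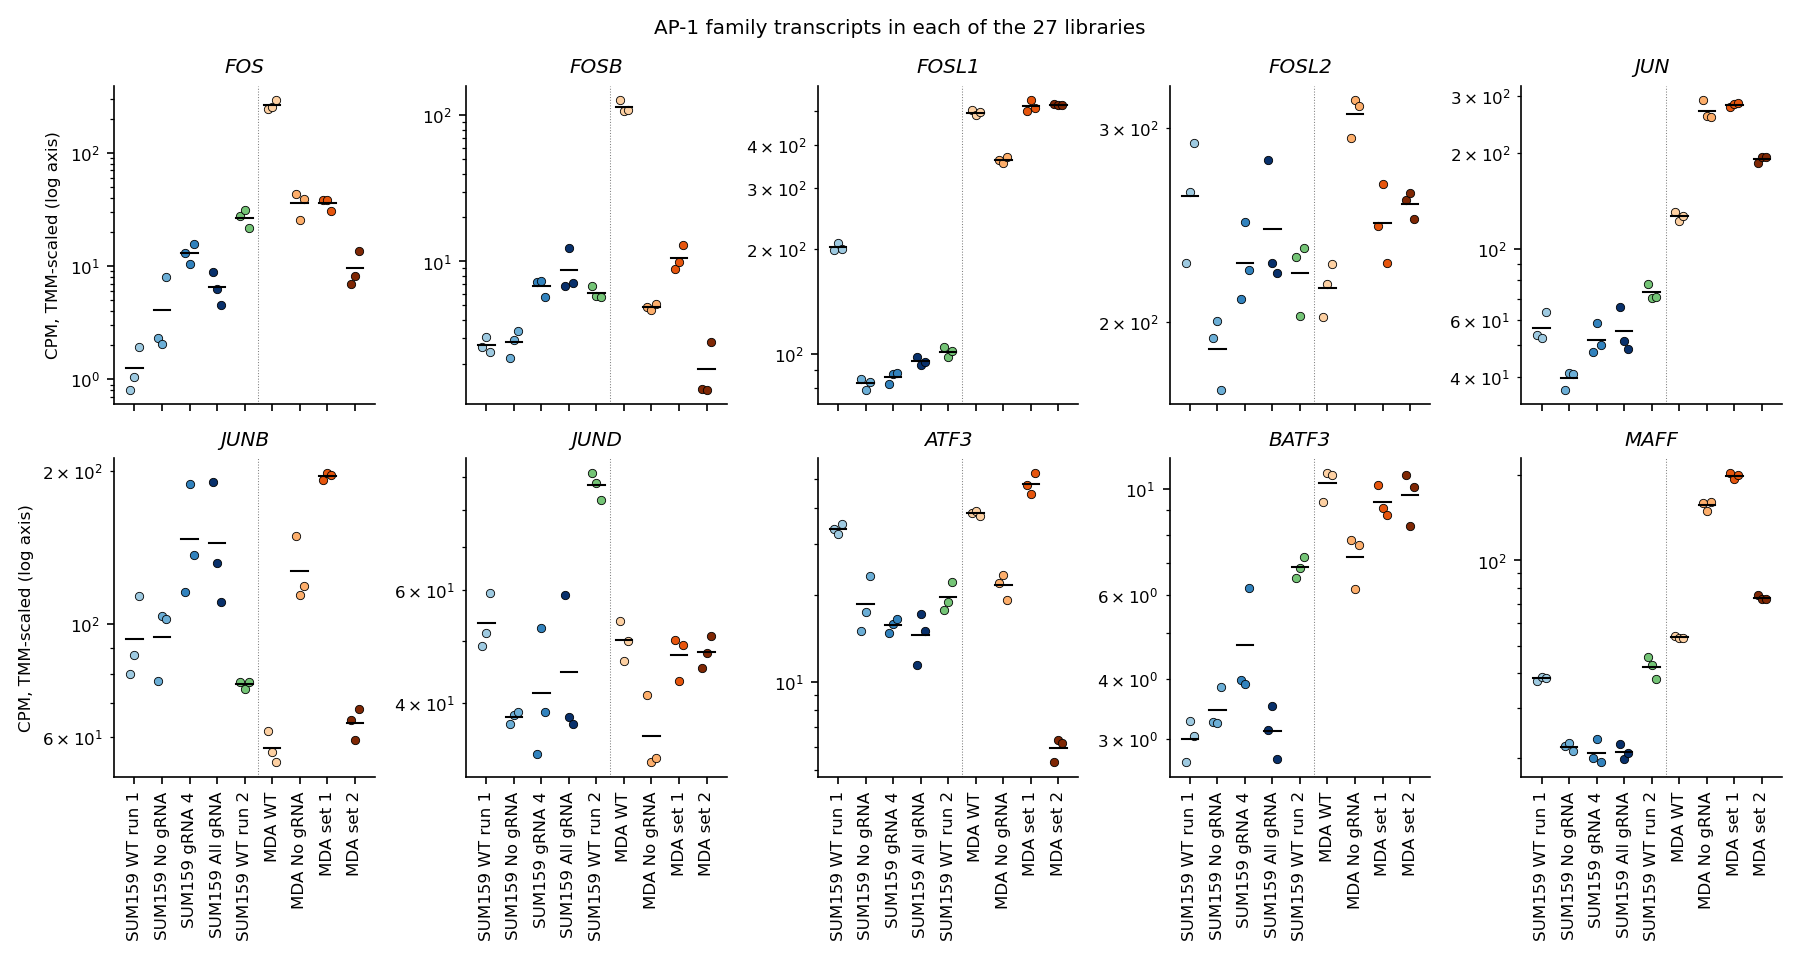
Each point is the level of an AP-1 gene in 1 of 27 libraries in TMM-scaled CPM on a log axis, with 3 libraries and a black line at the mean per group, and the dotted line divides SUM159 from MDA-MB-231. FOS and FOSB are highest in MDA-MB-231 wild type, and ATF3 is lowest in set 2.

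The vector controls were compared with wild type cells. The 2 differ by transduction, the dead Cas9-KRAB construct and selection, without a targeting gRNA, and these parts cannot be told apart. In SUM159, 6 members fell and 0 rose (42.9% of all genes were called, and the median member change was -0.48 beside 0.02 for all genes), while DESeq2 and edgeR each called FOS higher as well. FOSL1 fell most, from 199, 208 and 201 CPM to 85.0, 78.9 and 83.0 CPM, without overlap (-1.31 ± 0.05, limma adjusted p = 6.53e-09). ATF3 (-0.89 ± 0.15), MAFF (-0.81 ± 0.08), JUN (-0.53 ± 0.13), JUND (-0.49 ± 0.18) and FOSL2 (-0.46 ± 0.11) fell less. FOS, at 0.810, 1.04 and 1.93 CPM in wild type, gave 1.52 ± 0.60 and did not pass (limma adjusted p = 0.0619). This wild type group is that of run 1. Without any vector, FOSL1 in SUM159 wild type of run 2 was at 97.9 to 105 CPM, -0.996 ± 0.05 from run 1 on the log2 scale.

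In MDA-MB-231 all 10 members differed between No gRNA and wild type, 4 higher and 6 lower, where 53.8% of all genes were called, and ZEB1 itself was 1.51-fold higher in No gRNA. FOSB was at 126, 107 and 109 CPM in wild type and 4.85, 4.67 and 5.11 CPM in No gRNA, a fall of 24.01-fold (-4.59 ± 0.19 on the log2 scale, limma adjusted p = 4.24e-09). FOS was at 245, 257 and 290 CPM in wild type and 43.7, 25.5 and 39.3 CPM in No gRNA, a fall of 7.78-fold (-2.96 ± 0.16, limma adjusted p = 4.42e-08). Both genes were lower in every transduced MDA-MB-231 library than in every wild type library, set 1 and set 2 included. ATF3 (-0.88 ± 0.09), BATF3 (-0.57 ± 0.13), JUND (-0.56 ± 0.10) and FOSL1 (-0.51 ± 0.03) also fell. MAFF rose by 2.82-fold, from 54.1, 53.0 and 53.2 CPM to 160, 149 and 161 CPM (1.498 ± 0.05, limma adjusted p = 5.13e-10), and JUNB (1.10 ± 0.10), JUN (1.04 ± 0.05) and FOSL2 (0.47 ± 0.06) rose with it. The number of genes with 1 or more counts moved with this contrast, from 20300 to 20583 in wild type to 22914 to 23301 in No gRNA. Its part was not tested. Whether fewer cells expressed a gene or each cell held less of its RNA cannot be told apart in these bulk libraries, here and throughout.

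Against wild type, which carries no vector, the members split in both directions. In SUM159, 3 rose and 3 fell with all gRNAs (48.7% of all genes called), and 4 rose and 3 fell with gRNA 4 (46.8% called). FOS (2.40 ± 0.56 and 3.42 ± 0.54), FOSB (1.64 ± 0.26 and 1.31 ± 0.27) and JUNB (0.60 ± 0.22 and 0.63 ± 0.22) rose in both, and FOSL1 (-1.10 ± 0.05 and -1.26 ± 0.05), ATF3 (-1.24 ± 0.15 and -1.12 ± 0.15) and MAFF (-0.87 ± 0.08 and -0.89 ± 0.08) fell in both. The SUM159 wild type in these comparisons is that of run 1. In wild type of run 2, FOS was at 21.9 to 31.1 CPM, above every targeted SUM159 library (4.50 to 15.6 CPM). FOSB was at 5.73 to 6.75 CPM there, within the gRNA 4 range (5.73 to 7.31 CPM) and below that of all gRNAs (6.81 to 12.3 CPM). FOSB (1.18 ± 0.16), FOSL1 (-0.996 ± 0.05) and ATF3 (-0.78 ± 0.10) thus differed between the wild type runs in the same directions as above. JUNB and MAFF did not pass between the runs. In MDA-MB-231, 4 rose and 2 fell in set 1 (59.5% called), and 3 rose and 3 fell in set 2 (36.3% called). FOS (-2.94 ± 0.17 and -4.87 ± 0.26) and FOSB (-3.49 ± 0.15 and -6.07 ± 0.29) fell in both sets, and JUN (1.11 ± 0.05 and 0.56 ± 0.05) and MAFF (1.85 ± 0.05 and 0.43 ± 0.05) rose in both. FOSL1, higher than No gRNA in both sets, did not pass against wild type in either (0.01 ± 0.03 and 0.05 ± 0.03, limma adjusted p = 0.791 and 0.223). The mitochondrial share moved with these comparisons, from 2.99% to 3.43% in SUM159 wild type to 3.57% to 3.63% with gRNA 4 and 3.86% to 4.39% with all gRNAs, and from 2.19% to 2.24% in MDA-MB-231 wild type to 1.48% to 1.69% in set 1 and 1.40% to 1.56% in set 2, and its part in them was not tested. In MDA-MB-231 the number of genes with 1 or more counts was also lower in wild type than in both sets, and its part was not tested.

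The wild type groups were compared without any vector. SUM159 wild type of run 2 differed from run 1 in 7 members, 5 higher and 2 lower, where 62.1% of all genes were called. FOS was at 27.6, 31.1 and 21.9 CPM in run 2 against 0.810, 1.04 and 1.93 CPM in run 1 (4.48 ± 0.34, limma adjusted p = 3.73e-05), a difference larger than that of FOS from No gRNA in any of the 4 targeted groups. FOSL1 was at 105, 97.9 and 102 CPM in run 2, below run 1 (-0.996 ± 0.05), and JUND (0.72 ± 0.08), BATF3 (1.19 ± 0.14), FOSB (1.18 ± 0.16) and JUN (0.37 ± 0.09) were higher and ATF3 (-0.78 ± 0.10) lower. The mitochondrial share moved with this contrast, from 2.99% to 3.43% in run 1 to 1.84% to 1.87% in run 2, and its part was not tested. Run, culture and library preparation cannot be told apart here. Within run 2, SUM159 wild type was lower than MDA-MB-231 wild type in 7 members and higher in 2 (75.5% of all genes called). FOSB (-4.22 ± 0.17), FOS (-3.31 ± 0.14) and FOSL1 (-2.29 ± 0.04) differed most, JUND (0.81 ± 0.07) and JUNB (0.42 ± 0.07) were higher in SUM159, and FOSL2 did not pass (0.04 ± 0.07, limma adjusted p = 0.617).

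The mean targeted effect was then compared between the lines in 1 fit of 24 libraries. The interaction passed for 7 of 10 members, 1 with a higher effect in MDA-MB-231 and 6 with a lower one, where 25.4% of all genes were called. FOS (-2.36 ± 0.48 on the log2 scale, limma adjusted p = 9.44e-04), FOSB (-1.65 ± 0.36), JUNB (-0.79 ± 0.23), JUN (-0.66 ± 0.11), FOSL2 (-0.61 ± 0.12) and MAFF (-0.31 ± 0.08) had the lower effect in MDA-MB-231 and FOSL1 (0.38 ± 0.05) the higher one. The MDA-MB-231 side is the mean of 2 sets that moved in opposite directions for FOSB, JUNB and MAFF. In set 1 alone JUNB (0.63 beside 0.58 and 0.61 in SUM159) gave a value near those of SUM159 and MAFF a higher one (0.35 beside -0.06 and -0.08). The lower mean of JUNB and MAFF thus came from set 2. FOSB gave 1.09 in set 1, below both SUM159 values (1.59 and 1.26), and -1.49 in set 2. The sets were not tested singly against SUM159, and the line and the sequencing run cannot be told apart here.

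The genes around AP-1 were read from lists of its other partners, upstream kinases, fellow immediate early genes, MAPK feedback inhibitors and known targets. Their counts stand beside the share of all genes called in either direction, 10.8% with all gRNAs, 11.0% with gRNA 4, 37.8% in set 1 and 52.4% in set 2. Among 11 other AP-1 related bZIP genes, 7 were tested in SUM159 and 9 in MDA-MB-231, and 0 rose and 1 fell with all gRNAs, 1 rose and 1 fell with gRNA 4, 2 rose and 0 fell in set 1, and 0 rose and 2 fell in set 2, so that a smaller share than of all genes was called in each set but not in SUM159. JDP2, a repressor of AP-1, fell in SUM159 with all gRNAs (-0.41 ± 0.05) and gRNA 4 (-0.52 ± 0.06) and in set 2 (-1.65 ± 0.12), where it was at 8.77, 7.63 and 6.43 CPM against 26.3, 24.2 and 22.4 CPM in No gRNA. BATF2 also fell in set 2 (-1.85 ± 0.20), and the small MAF genes MAFK (0.92 ± 0.11) and MAFG (0.41 ± 0.04) rose in set 1. Against wild type, the bZIP list had 6 higher and 0 lower in set 1 (59.5% of all genes called) and 3 higher and 0 lower in set 2 (36.3%). MDA-MB-231 No gRNA itself had 5 higher and 0 lower than wild type (53.8%). In SUM159, 4 were higher and 2 lower with all gRNAs (48.7%) and 3 higher and 2 lower with gRNA 4 (46.8%). Of 17 upstream kinases and factors, 1 rose and 1 fell with all gRNAs, 2 rose and 0 fell with gRNA 4, 7 rose and 3 fell of 16 tested in set 1, and 9 rose and 2 fell of 16 in set 2. The SUM159 shares were near those of all genes. Against wild type, the upstream list had 3 higher and 6 lower with all gRNAs (48.7% of all genes called) and 3 higher and 5 lower with gRNA 4 (46.8%). It had 6 higher and 4 lower in set 1 (59.5%) and 4 higher and 1 lower in set 2 (36.3%). MAP2K1, which encodes the kinase MEK1, rose in all 4 comparisons, by 0.31 ± 0.05 and 0.32 ± 0.05 in SUM159 and 0.48 ± 0.06 and 0.53 ± 0.06 in MDA-MB-231. RPS6KA1, encoding an ERK-activated kinase, rose in both sets (1.15 ± 0.19 and 1.30 ± 0.19), and SRF, the serum response factor that drives FOS, rose in both (0.68 ± 0.04 and 0.26 ± 0.04), while MAPK3, encoding ERK1, fell in both sets (-0.36 ± 0.09 and -0.56 ± 0.09) and with all gRNAs in SUM159 (-0.61 ± 0.17).

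The other immediate early genes were read in the same way. Of 16 such genes, 12 rose and 0 fell in set 1 (median 0.68), and 1 rose and 9 fell in set 2 (median -0.79), beside a median of -0.01 for all genes in both and 37.8% and 52.4% of all genes called. EGR1, a zinc finger factor induced together with FOS, was at 404, 397 and 379 CPM in No gRNA, 594, 640 and 623 CPM in set 1 and 51.9, 56.7 and 53.5 CPM in set 2, so that the 3 groups did not overlap (0.66 ± 0.04 and -2.84 ± 0.06). PPP1R15A, a stress-induced phosphatase subunit, was at 802, 766 and 769 CPM in No gRNA and 240.1, 242 and 239 CPM in set 2 (-1.67 ± 0.03), and rose in set 1 (0.81 ± 0.02). EGR2 and EGR3 rose in set 1 and fell in set 2 as well, but neither exceeded 2.87 CPM in any MDA-MB-231 library of these 3 groups. In SUM159, of 15 tested, 3 rose and 2 fell with all gRNAs and 4 rose and 3 fell with gRNA 4, where 10.8% and 11.0% of all genes were called. Against wild type, 8 were higher and 0 lower in set 1 (59.5% of all genes called), 2 higher and 8 lower in set 2 (36.3%), 2 higher and 4 lower with all gRNAs (48.7%) and 3 higher and 4 lower with gRNA 4 (46.8%). EGR1 was at 8.55, 7.46 and 9.61 CPM in SUM159 No gRNA, 38.6, 42.7 and 43.3 CPM with gRNA 4 and 47.2, 40.7 and 42.4 CPM with all gRNAs (2.27 ± 0.12 and 2.34 ± 0.11), near its wild type level of 44.4, 41.7 and 44.3 CPM.

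The MAPK feedback inhibitors, genes that limit MAPK signalling, were read next. Of 13 tested in SUM159, 8 rose and 0 fell with all gRNAs (median 0.58) and 6 rose and 0 fell with gRNA 4 (median 0.39), where 10.8% and 11.0% of all genes were called. Of 12 tested in MDA-MB-231, 2 rose and 5 fell in set 1 (median -0.17) and 0 rose and 11 fell in set 2 (median -0.84), where 37.8% and 52.4% were called. DUSP6, the ERK phosphatase, was at 15.4, 17.0 and 15.2 CPM in SUM159 No gRNA, 41.2, 34.9 and 34.1 CPM with gRNA 4 and 47.7, 45.7 and 45.2 CPM with all gRNAs (1.20 ± 0.10 and 1.54 ± 0.10), and fell in set 2 (-1.56 ± 0.03) and in set 1 (-0.20 ± 0.02). SPRY4 (-1.54 ± 0.05) and DUSP5 (-1.501 ± 0.06) fell in set 2 and rose in both SUM159 comparisons, and DUSP8 rose in set 1 (1.63 ± 0.28). The No gRNA groups themselves had moved from wild type, with 12 of 12 of these genes higher in MDA-MB-231 and 1 higher and 8 lower of 13 in SUM159, where 53.8% and 42.9% of all genes were called. Against wild type, 5 were higher and 5 lower with all gRNAs (median 0.07, 48.7% of all genes called) and 4 higher and 7 lower with gRNA 4 (median -0.25, 46.8%) in SUM159, and 10 were higher and 1 lower in set 1 (median 0.60, 59.5%) and 2 higher and 7 lower in set 2 (median -0.23, 36.3%). The count of set 1 thus lay on the lower side against No gRNA and on the higher side against wild type.

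Known AP-1 target genes, such as matrix proteases and cytokines, were read last. Of 16 tested in SUM159, 11 rose and 1 fell with all gRNAs (median 0.56) and 8 rose and 1 fell with gRNA 4 (median 0.29), where 10.8% and 11.0% of all genes were called. Of 20 tested in MDA-MB-231, 17 rose and 1 fell in set 1 (median 0.41) and 4 rose and 14 fell in set 2 (median -0.69), where 37.8% and 52.4% were called. No gRNA itself stood above wild type in MDA-MB-231, with 18 higher and 1 lower of 20 (median 1.00, 53.8% of all genes called), and against wild type set 1 gave 18 higher and 1 lower (59.5% called) and set 2 gave 11 higher and 5 lower (median 0.20, 36.3% called). In SUM159, 9 were higher and 4 lower than wild type with all gRNAs (48.7% called) and 5 higher and 4 lower with gRNA 4 (median -0.02, 46.8% called). MMP9, a gelatinase, was at 11.3, 9.91 and 10.0 CPM in No gRNA and 48.6, 53.1 and 48.1 CPM in set 1 (2.27 ± 0.09), and gave -0.28 ± 0.12 in set 2 (limma adjusted p = 0.0687). MMP10, a stromelysin, was at 5.49, 6.29 and 8.51 CPM in No gRNA, rose in set 1 (1.18 ± 0.15) and fell in set 2 to 0.388, 0.572 and 0.511 CPM (-3.68 ± 0.37). CXCL8, a neutrophil chemokine, fell in both sets (-0.43 ± 0.03 and -2.66 ± 0.05) and rose in both SUM159 comparisons (1.00 ± 0.08 with all gRNAs and 0.66 ± 0.09 with gRNA 4). Set 2 against set 1 gave 1 higher and 18 lower among the 20 targets, 1 higher and 14 lower among the 16 immediate early genes and 0 higher and 11 lower among the 12 feedback inhibitors, while 51.5% of all genes were called.

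**Figure D4:**
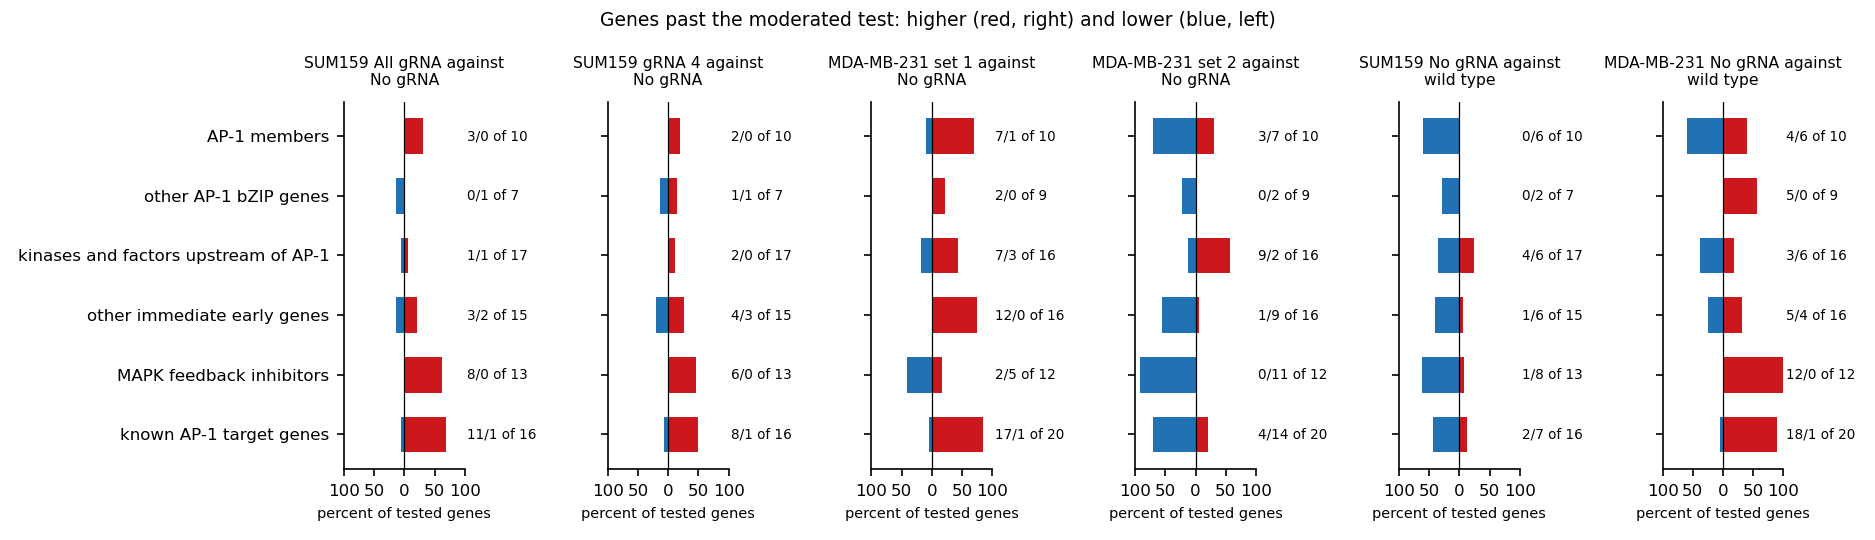
Bars show the percent of tested genes of each list that passed the limma moderated test, higher to the right in red and lower to the left in blue, in the 4 targeted comparisons and the 2 comparisons of No gRNA with wild type. The numbers beside each bar are the genes higher, lower and tested. The bars for immediate early genes and known targets point right in set 1, except for 1 known target, and mostly left in set 2.

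Several members varied together across the 24 libraries of both lines, each library centred on the mean of its line, which describes groups and libraries that share treatment and run. The highest Pearson coefficients were 0.87 for FOS and FOSB, 0.85 for JUN and MAFF, 0.83 for JUN and JUNB and 0.72 for FOSL2 and JUN, and FOS and MAFF had -0.45. Over the same 24 libraries, the genes of 13775 most like FOS were CHURC1 (0.89), HES1 (0.88) and FOSB, those most like FOSL1 were TXLNG, SMIM13 and CORO1C (0.96, 0.96 and 0.95), and those most like JUN were TGFBR2, ZC3H12C and RELB (each 0.93). Within a line the values differed, with 0.99 for RELB and JUN in MDA-MB-231 and 0.64 in SUM159.

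**Figure D5:**
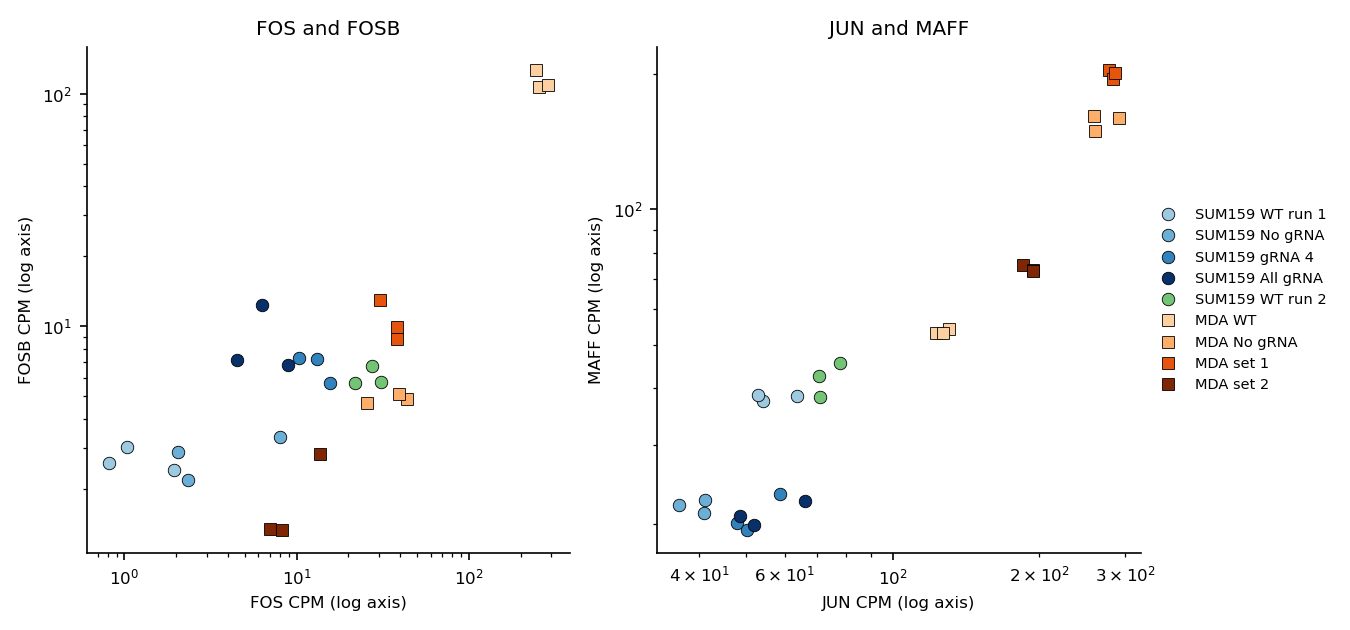
Each point is 1 of 27 libraries, SUM159 as circles and MDA-MB-231 as squares, with FOS against FOSB on the left and JUN against MAFF on the right, in TMM-scaled CPM on log axes. The MDA-MB-231 wild type libraries hold the highest FOS and FOSB, and the JUN and MAFF points of MDA-MB-231 run from wild type through set 2 to No gRNA and set 1.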

How the data were processed

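Gene-level estimated counts were deposited by the authors for 27 libraries, made from RNA-seq reads with Salmon, which the submitters' processing notes name together with the build GRCh38. Per the deposited file, transcripts were summed to genes with tximport as abundances scaled by mean transcript length and library total, which removes length differences between libraries. The Salmon index, annotation and strand setting are not given in the sources used here. The table has 57165 gene identifiers, of which 56347 matched GENCODE 44, from which positions and canonical transcript lengths were taken. Groups followed the sample labels, and 3 libraries made a group.

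Estimated counts were filtered with filterByExpr (minimum count 10), scaled by TMM and fitted with voom and limma 3.58.1 in R 4.3.3, with the 12 libraries of a line in each fit within a line. The moderated test against no change and the TREAT test at a log2 fold change of 1 were adjusted over all genes tested by the Benjamini-Hochberg method, with a threshold of 0.05. CPM were TMM-scaled over all 27 libraries. Levels per length are CPM divided by kilobases of transcript. The quasi-likelihood test of edgeR 4.0.16 and the Wald test of DESeq2 1.42.0 were run on rounded counts as alternatives, together with other scalings, no filter, a replicate block and each library left out. The steps were tested on simulated data. Replicates were clones, and p-values measure the spread between them. The same-numbered libraries did not deviate together, so the numbers were not used to pair samples.

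Members and lists were chosen with earlier results of these data known. All 10 members were described, and from each list the 4 genes with the largest change among those past the moderated test in any of the 4 targeted comparisons were named. A named gene of the target list is not reported here. Promoters came from RefSeq on GRCh38.p14.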

Additional observations from a re-analysis of the deposited data

Results flagged for a closer look

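The response to ZEB1 targeting differed between the lines for 7 of the 10 members by the interaction test of voom and limma, adjusted over all genes, where 25.4% of all genes were called. The mean log2 effect in MDA-MB-231 minus that in SUM159 was -2.36 for FOS, -1.65 for FOSB, -0.79 for JUNB, -0.66 for JUN, -0.61 for FOSL2, -0.31 for MAFF and 0.38 for FOSL1. In that fit all SUM159 libraries were from run 1 and all MDA-MB-231 libraries from run 2, and the MDA-MB-231 effect is the mean of both sets, which were not tested singly against SUM159. Set 1 against No gRNA gave 0.63 for JUNB beside 0.58 and 0.61 in SUM159 with all gRNAs and gRNA 4. For MAFF it gave 0.35 beside -0.06 and -0.08. Neither gene was below SUM159 in set 1, so the lower mean of JUNB and MAFF came from set 2. FOSB gave 1.09 in set 1, below both SUM159 values (1.59 and 1.26), and -1.49 in set 2. ATF3 rose in set 1 and fell in set 2, and its difference of -0.07 did not pass (limma adjusted p = 0.838).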

How the results depend on the processing

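Of 244 counts recomputed, 232 were within 1.5 times the reported one. For SUM159 with all gRNAs, the 3 members changed became 1 with no filter, 1 with the replicate block and 5 by the DESeq2 Wald test, and 1 to 2 with a library left out. With gRNA 4, the 2 members changed became 4 by DESeq2, and 0 to 2 with a library left out. In set 2, the 1 member past 2-fold became 2 (FOS and ATF3) by edgeR and by DESeq2, and 1 to 2 with a library left out. Of 400 member values, 363 kept their direction and side of the threshold, 28 lost the call, 2 gained it and 7 changed sign. Those that changed sign had not passed the test. FOS in set 1 was -0.0598 and JUN in set 1 -0.00875 by library totals alone, and with a library left out FOS in set 1 ranged from -0.22 to 0.18, JUND with all gRNAs from -0.0190 to 0.32 and JUND with gRNA 4 from -0.0905 to 0.23. The replicate block kept 38 of 40 member values, and its 2 lost calls were FOSL1 and JUN with all gRNAs (limma adjusted p = 0.0567 and 0.0648). No same-numbered correlation exceeded 0.1, so these libraries share only a number. The cause of these changes was not tested. With 3 libraries a group, low genes such as FOSB and SUM159 FOS had the widest errors.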

Other observations

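Of the 12 cell identity markers, 6 were tested in SUM159 and 9 in MDA-MB-231. In limma, 3 rose and 0 fell with all gRNAs (10.8% of all genes called), 2 rose and 1 fell with gRNA 4 (11.0%), 5 rose and 1 fell in set 1 (37.8%) and 6 rose and 1 fell in set 2 (52.4%). VIM and CLDN4 did not pass in either SUM159 comparison, nor did ERBB2 in either set. EPCAM, an epithelial adhesion gene, was at 12.6, 10.9 and 14.3 CPM in MDA-MB-231 No gRNA, 294, 280 and 297 CPM in set 1 and 377, 380 and 385 CPM in set 2, and its 3 groups did not overlap. CDH1, which encodes E-cadherin, was at 0.193, 0.273 and 1.02 CPM in No gRNA, 19.0, 24.2 and 10.3 CPM in set 1 and 2.71, 5.05 and 1.26 CPM in set 2. Its limma log2 fold changes were 5.36 and 2.72, both past the moderated test. VIM, the mesenchymal filament gene, fell in set 1 (-0.85) and rose slightly in set 2 (0.10). In SUM159, EPCAM was listed at 0 in all 3 No gRNA libraries and reached 1.03, 0.958 and 1.39 CPM with gRNA 4 and 0.919, 0.811 and 0.877 CPM with all gRNAs. CDH1 was at 5.11 CPM in the first All gRNA library and at no more than 0.331 CPM in the other 5 targeted SUM159 libraries.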
